A study of Mus musculus with 16 samples.

Results

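The Mirg cluster is a run of miRNA genes in the imprinted Dlk1-Dio3 domain of mouse chromosome 12. Its members were taken by name, as every mouse miRNA on the array whose number belongs to the cluster, with any letter, arm or star, and they came to 47 of the 611 mouse miRNAs on the array. They were measured in RNA from primary mouse embryonic fibroblasts (MEFs) of mixed FVB/n and C57Bl/6 background, on 16 one-colour arrays in 8 groups of 2. The groups were WT and Ercc1-/- MEFs at passage 3 (P3) and passage 7 (P7), each grown in 3% O2 or in 20% O2. Ercc1-/- cells lack part of the XPF-ERCC1 endonuclease, which excises damaged DNA and takes part in the repair of crosslinks and double-strand breaks, and the deletion is in every cell of the line, while no group received a drug or other agent. By the methods, the replicates of a group were independent cell lines, so each group stands for 2 lines. All arrays of replicate 1 lay on 1 slide and all arrays of replicate 2 on the other, and the cell lines, slides and scans therefore cannot be told apart.

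The miRNAs of the domain are made from the maternally inherited chromosome, where they are cut out of long non-coding transcripts that include Meg3, Rian and Mirg. A hairpin is cleaved by Drosha and Dicer to a duplex, of which 1 arm, or each arm in turn, is loaded into an Argonaute protein and pairs with target mRNAs mainly through its seed, bases 2 to 8. The cluster is specific to placental mammals, is highly expressed in embryo, placenta and brain, and is silenced in many mouse induced pluripotent stem cell lines that develop poorly. In neurons Mef2 drives its transcription, and miR-134 represses the kinase Limk1 in dendritic spines.

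In RefSeq, on build GRCm38.p6, the 47 members came from 33 hairpins on chromosome 12, from Mir379 at chr12:109709060-109709125 to Mir410 at chr12:109743715-109743795, a span of 34736 bases. The annotated Mirg gene, chr12:109734981-109749458, held 9 of the 33 hairpins, from Mir453 to Mir410, and the others lay on the Mir379 side of it, so that the name of the cluster is wider than the annotated transcript. The mature sequences below are those of the members on which the results turn, namely both arms of 6 hairpins and the other members that were higher at P7. They are from RefSeq, 5′ to 3′, with the seed in capitals. Of the 47 members, 11 matched by name, 23 matched through the arm names given to them since the array was designed, which the files do not record, and for 13 no sequence was used.

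miR-494: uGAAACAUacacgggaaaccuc

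miR-134: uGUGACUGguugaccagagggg

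miR-381: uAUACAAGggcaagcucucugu

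miR-376a: aUCGUAGAggaaaauccacgu

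miR-376a*: gGUAGAUUcuccuucuaugagu

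miR-376b: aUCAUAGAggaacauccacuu

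miR-376b*: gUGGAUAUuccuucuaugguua

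miR-154: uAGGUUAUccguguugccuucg

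miR-154*: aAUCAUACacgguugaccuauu

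miR-382: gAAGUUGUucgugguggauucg

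miR-382*: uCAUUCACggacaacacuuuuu

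miR-409-3p: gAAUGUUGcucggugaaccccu

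miR-409-5p: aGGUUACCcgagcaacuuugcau

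miR-411: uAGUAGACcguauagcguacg

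miR-411*: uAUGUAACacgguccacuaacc

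No seed was shared by these 15 miRNAs. Among all members with a sequence, miR-376b* and miR-376c* shared a seed and differed at 1 of 22 positions. The sequences of miR-300 and miR-381 differed at 3 of 22 positions, those of miR-376a and miR-376b at 3 of 21, and those of miR-495 and miR-543 at 4 of 22. Signal that such pairs share on the array could not be split, and their values are to be read with that in mind.

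Most of the cluster was expressed in MEFs, and how much of it rose above background followed the brightness of the array. A miRNA was counted as above background on an array when, for any of its probes, at least a share of 0.5 of the spots was marked well above background. By this count 34 of the 47 members were above background on at least 1 array, against 308 of all 611 mouse miRNAs. On slide 1, 32 to 33 members were above background on the 4 P3 arrays and 19 to 32 on the 4 P7 arrays. On slide 2, the counts were 12 to 30 at P3 and 9 to 19 at P7. The mean unscaled log2 signal of an array, over the 57 miRNAs that all arrays measured above background, ran from 9.31 to 9.77 at P3 and from 7.91 to 9.29 at P7 on slide 1, and from 6.98 to 8.65 at P3 and from 5.80 to 7.99 at P7 on slide 2. The 4 arrays under 7.5 were all on slide 2: WT P3 20% O2, WT P7 20% O2, Ercc1-/- P7 20% O2 and Ercc1-/- P7 3% O2. The single WT P3 array among them had 12 members above background, close to the 13 of the WT P7 array of the same slide and oxygen, so low counts were not limited to P7.

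**Figure D1:**
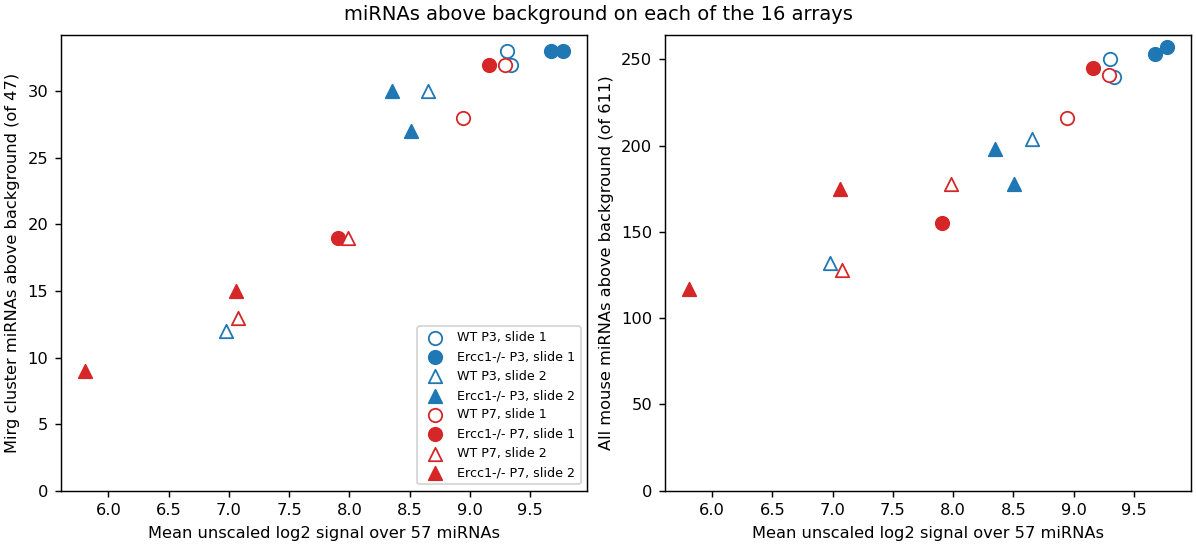
Number of miRNAs above background on each array (left, the 47 Mirg cluster members; right, all 611 mouse miRNAs) against the mean unscaled log2 signal of that array over 57 miRNAs; colour gives passage, shape gives slide, and open symbols are WT. Counts rose with brightness in either panel, from 9 members on the dimmest array (5.80) to 33 on the brightest (9.77).

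The members fell into 3 classes of detection. MiR-379, miR-494, miR-376a, miR-300, miR-382 and miR-410 were above background on all 16 arrays. MiR-381, miR-134, miR-154, miR-377 and miR-409-3p were above background on 15 arrays, miR-299 and miR-329 on 14, miR-411 and miR-376b on 13, and miR-411*, miR-299*, miR-376c and miR-409-5p on 12. MiR-487b and miR-485, a regulator of dendritic spines, were above background on 11 arrays, miR-495, miR-376b*, miR-376a*, miR-382*, miR-154* and miR-541 on 10, miR-369-5p on 9, and miR-380-3p and miR-543 on 8. MiR-300*, miR-496, miR-539 and miR-668 were above background on 7, 6, 3 and 1 arrays. The remaining 13 members were not above background on any array: miR-380-5p, miR-323-3p, miR-323-5p, miR-758, miR-679, miR-666-3p, miR-666-5p, miR-667, miR-376c*, miR-485*, miR-453, miR-412 and miR-369-3p. Thus the hairpins of miR-380, miR-369, miR-485 and miR-376c each gave 1 arm above background and 1 that was not on any array.

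Members were tested if 1 group or more had them above background on each of its arrays, which left 30 (63.8% of the members, against 38.5% of all mouse miRNAs, 235 in number). Of the 30, 11 passed this filter in P3 groups only, 19 in groups of either passage and none in P7 groups only, so that members low at P7 were more readily admitted than members low at P3. Arrays were brought to the same average log2 signal of the 57 miRNAs, and a scaled signal under 2.82 (1.5 on the log2 scale) was set to that floor. All levels below are on this scaled log2 scale.

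With passage, averaged over both genotypes and both oxygen levels, the cluster did not move as 1 unit. Of the 30 tested members, 12 were downregulated at P7 and 4 were upregulated (limma, adjusted p under 0.05 over all 235 tested miRNAs). Of the 12, 9 had passed the filter in P3 groups only, which by itself favours a lower call. The count and share of lower calls are therefore descriptions. MiR-494 rose by a log2 change of 3.97, while miR-299*, miR-154* and miR-495, above background on only 4, 3 and 3 of 8 P7 arrays, fell by 2.95, 2.44 and 2.19 with the other P7 values at signals not told from background. The calls stood against a broad background: 32.3% of all tested miRNAs were called lower and 22.6% were called higher in the same comparison, beside 40.0% and 13.3% of the members. The median change of the 30 members was -0.74, against -0.39 over all 235. For 10 members at least 1 P7 group had no array above background. With such groups raised to the lowest signals above background of their arrays, the median was -0.64. Other values not above background were kept, so this median is not a limit. The members were thus 0.34 lower than the median of all tested miRNAs, and they spread about as widely as the rest, with an SD over miRNAs of 1.49 against 1.56. With the replicate number as a block, 14 members were called lower and 6 higher, where 40.4% and 27.7% of all tested miRNAs were called. Either fit counts the arrays of a slide at a passage as independent, so these p-values can be too small. In these cultures, fewer cells that express a miRNA and less of it per cell cannot be told apart.

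The size of the change depended on the slide and on how the arrays were processed. The median change of the members was -0.24 on slide 1 and -1.30 on slide 2, and in a fit of slide 1 alone no member was called, where limma called 2.55% of all tested miRNAs. On slide 2 alone 23 of 30 members were called, as were 76.2% of all tested miRNAs. After quantile scaling, or scaling to the 75th percentile of the miRNAs above background on all arrays, 7 members were called higher and 11 lower, in place of 4 and 12. Under these scalings 26.8% and 27.2% of all tested miRNAs were called higher and 28.9% and 25.5% lower. With a normexp background correction the median of the members turned to 0.33 and that of all tested miRNAs to 0.34, with 1 member called in each direction, beside 5.96% of all tested miRNAs called higher and 8.94% called lower.

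**Figure D2:**
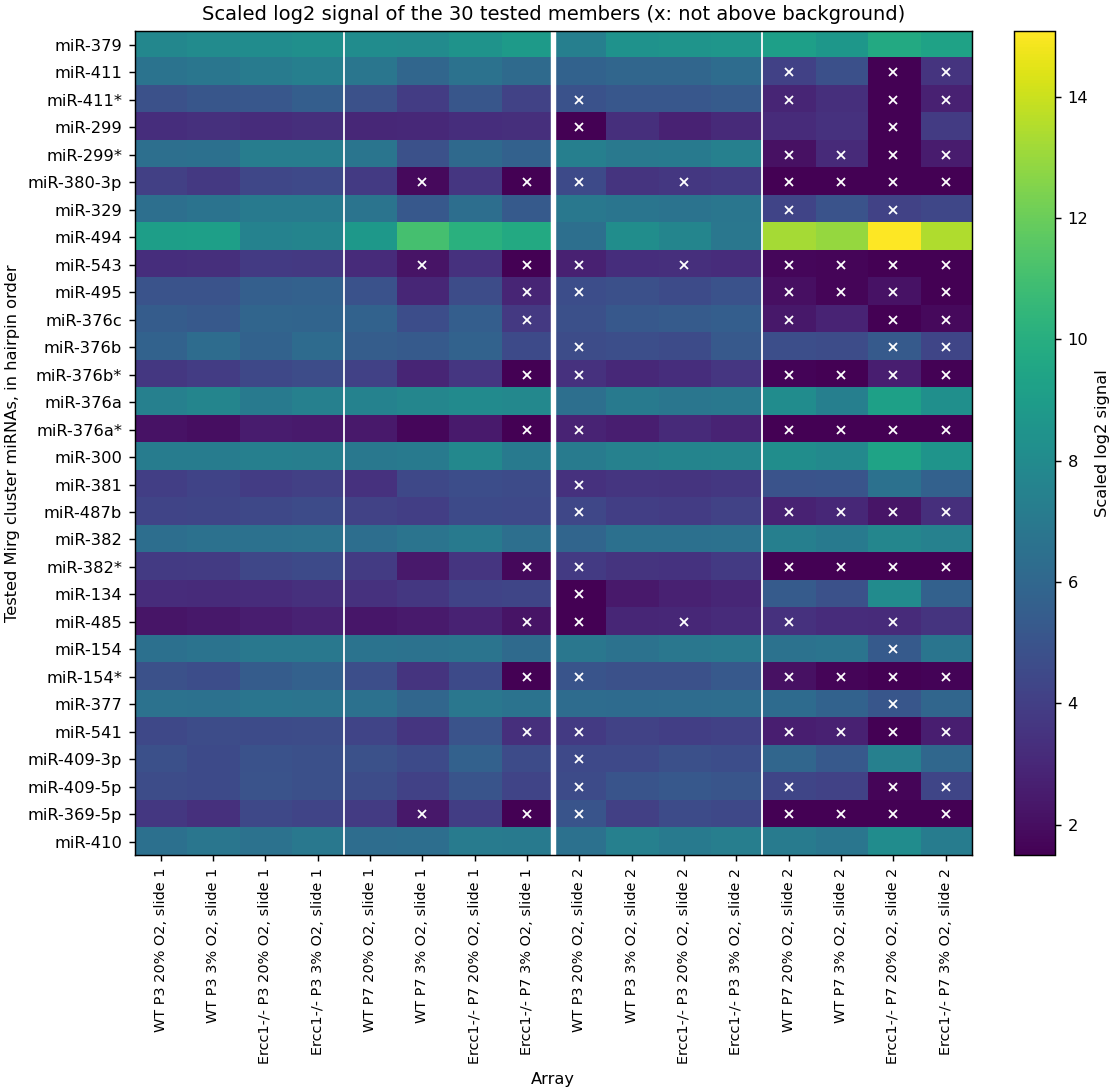
Scaled log2 signal of the 30 tested members (rows, in the order of their hairpins on chromosome 12) on the 16 arrays (columns, slide 1 left of the thick line and slide 2 right, P3 left and P7 right within each); a cross marks a value not above background. The 4 P7 arrays of slide 2 carried most of the crosses and the highest values of miR-494, up to 15.08.

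**Figure D3:**
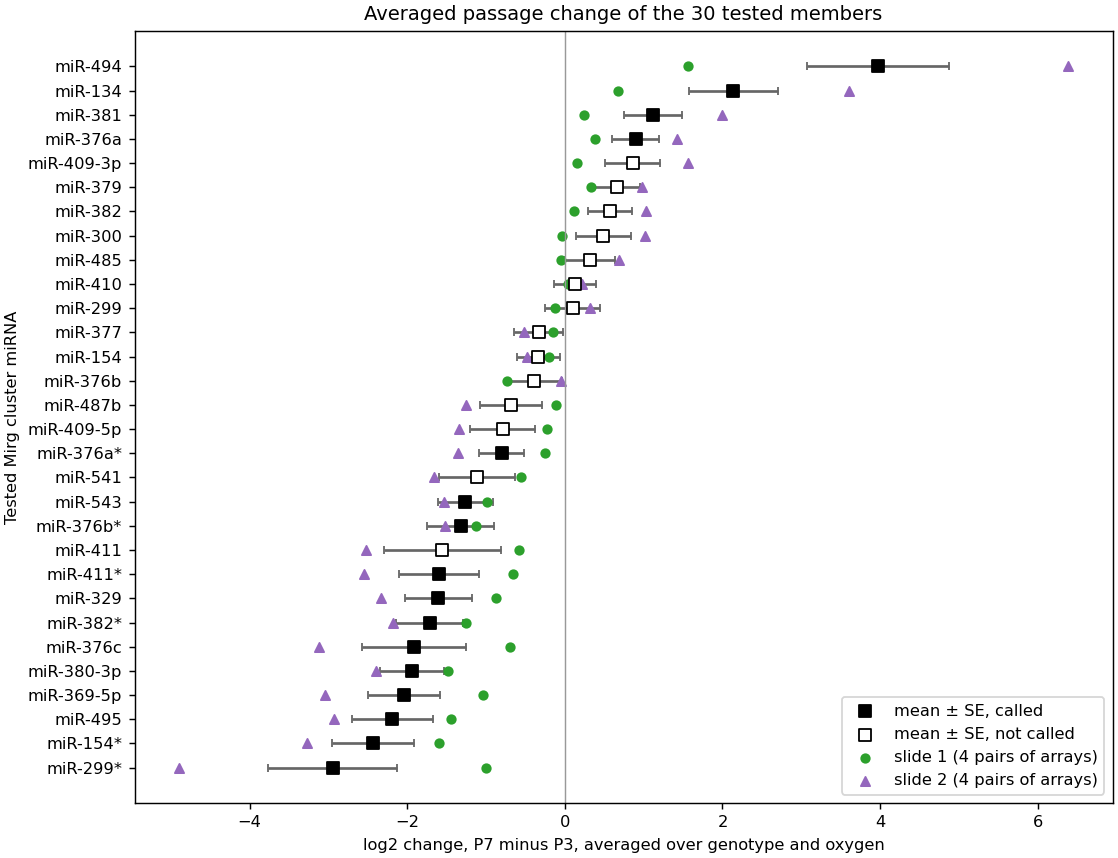
Averaged log2 change from P3 to P7 of each tested member (square, mean ± SE of the limma fit of 16 arrays, filled where called), with the mean change on slide 1 (circle) and on slide 2 (triangle). For all 16 called members the 2 slides lay on the same side of 0, and slide 2 lay farther from it.

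Among the upregulated members, miR-494 had the widest range. On the P3 arrays its scaled log2 signal had a lowest value of 6.45, a median of 7.66 and a highest value of 9.18, and on the P7 arrays 8.73, 12.01 and 15.08. On slide 1 it read 9.11, 9.18, 7.5 and 7.65 at P3 (WT in 20% and 3% O2, then Ercc1-/- in 20% and 3% O2) and 8.73, 11.10, 10.09 and 9.75 at P7 in the same order. On slide 2 it read 6.45, 8.13, 7.68 and 6.86 at P3 and 13.23, 12.92, 15.08 and 13.44 at P7. Every P7 value of slide 2 thus lay above every other value of miR-494, while WT MEFs in 20% O2 on slide 1 were slightly lower at P7 than at P3. The averaged change of miR-494 was 3.97 ± 0.90 (SE, adjusted p = 0.0070 by limma), or 15.7-fold, made up of 1.56 on slide 1 and 6.39 on slide 2.

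MiR-134 had a lowest, median and highest value of 1.5, 3.05 and 3.36 at P3 and of 3.42, 4.59 and 8.04 at P7, and the passages did not overlap. It was above background on 7 of 8 P3 arrays and on all 8 P7 arrays. Its averaged change was 2.14 ± 0.57 (SE; limma, adjusted p = 0.011), of which slide 1 gave 0.68 and slide 2 gave 3.60. MiR-381 ranged from 3.43 to 4.25 at P3 and from 3.46 to 6.57 at P7, with an averaged change of 1.12 ± 0.37 (SE, adjusted p = 0.025 by limma). MiR-376a, whose precursor is edited from adenosine to inosine in brain, ranged from 6.45 to 7.68 at P3 and from 7.36 to 9.22 at P7, with an averaged change of 0.90 ± 0.30 (SE, adjusted p = 0.024 by limma). The calls of miR-494 and miR-134 held whichever single array was left out. Those of miR-381 and miR-376a were each lost in 7 of 16 such fits, at adjusted p up to 0.064 and 0.062. For miR-381 these were the fits without any 1 array of slide 2 other than Ercc1-/- P7 20% O2. For miR-376a they were the fits without WT P7 3% O2 replicate 1 or without any 1 array of slide 2 other than WT P7 3% O2 and Ercc1-/- P7 20% O2. With no scaling the change of miR-376a was -0.02.

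Of the 12 downregulated members, 9 had passed the filter in P3 groups only, which by itself favours high P3 and low P7 detection. As a description, all 48 of their values were above background on the P3 arrays of slide 1 and 37 of 48 on those of slide 2, then 36 of 48 on the P7 arrays of slide 1 and 4 of 48 on those of slide 2. MiR-299* had a lowest, median and highest value of 6.48, 7.19 and 7.40 at P3 and of 1.5, 4.0 and 6.77 at P7. Its averaged change was -2.95 ± 0.82 (SE; limma, adjusted p = 0.012). Slide 1 gave -1.0, and the -4.89 of slide 2 is a difference from P7 signals not told from background, so the average has no exact size. The P7 values of slide 2, from 1.5 to 3.12, were all below background and those of slide 1, from 4.88 to 6.77, all above it.

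MiR-154* had values of 4.69, 4.94 and 5.74 at P3 (lowest, median, highest) and of 1.5, 1.88 and 4.77 at P7. On the P7 arrays of slide 1 it read 4.77 and 3.55 in WT MEFs in 20% and 3% O2 and 4.53 and 1.5 in Ercc1-/- MEFs, and on slide 2 it did not exceed 2.10. Its fitted change was -2.44 ± 0.52 (SE, adjusted p = 0.0067 by limma). MiR-495 had values of 4.60, 4.95 and 5.70 at P3 and of 1.5, 2.54 and 4.90 at P7, with a fitted change of -2.19 ± 0.51 (SE; limma, adjusted p = 0.0080). MiR-369-5p, which shares a hairpin with the AU-rich element binding miR-369-3p, had values of 3.40, 4.38 and 5.0 at P3 and of 1.5, 1.5 and 3.96 at P7, with a fitted change of -2.04. MiR-380-3p ranged from 3.56 to 4.53 at P3 and from 1.5 to 3.78 at P7, with a fitted change of -1.94. MiR-154*, miR-495, miR-369-5p and miR-380-3p were above background on 3, 3, 2 and 2 of 8 P7 arrays, so these changes have no exact size. They had passed the filter in P3 groups only, which favours a fall, and the p-values above are not free of that choice. For each of these members the highest P7 value came from an array of slide 1 in 20% O2. This value lay within the P3 range, as did the other slide 1 P7 value in 20% O2 for miR-495, miR-369-5p and miR-380-3p.

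The other named downregulated members, miR-382*, miR-329, miR-411*, miR-376b* and miR-543, had fitted log2 changes of -1.71, -1.61, -1.60, -1.32 and -1.26, with adjusted p from 0.009 to 0.021 by limma. MiR-382*, miR-376b* and miR-543 had also passed the filter in P3 groups only. They were above background on 3, 3 and 2 of 8 P7 arrays, so their changes have no exact size or order. MiR-329 ranged from 6.48 to 7.07 at P3 and from 4.19 to 6.74 at P7, and remained above background on 6 of 8 P7 arrays. Across all 12 downregulated members the change ran from -1.60 to -0.25 on slide 1 and from -4.89 to -1.35 on slide 2. For 9 of the 12 at least 1 P7 group had no array above background. With such groups raised to the lowest signals above background of their arrays, the median change of the 12 was -1.61 in place of -1.81. Other values not above background were kept, so neither median is a limit. The calls of miR-154*, miR-299*, miR-329, miR-369-5p, miR-380-3p, miR-382*, miR-495 and miR-543 held whichever single array was left out, whereas that of miR-411* was lost without WT P7 20% O2 replicate 2 or Ercc1-/- P7 3% O2 replicate 2, and that of miR-376b* without WT P3 3% O2, Ercc1-/- P3 20% O2 or Ercc1-/- P3 3% O2 replicate 1 or without WT P7 3% O2 replicate 2. The calls of the other 2 downregulated members, miR-376c and miR-376a*, were lost in 9 and 10 of 16 such fits. MiR-376c is named here for that reason, after its values were seen: its call was lost without any 1 of the 4 P3 arrays of slide 1, or of WT P3 3% O2 and the 4 P7 arrays of slide 2.

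**Figure D4:**
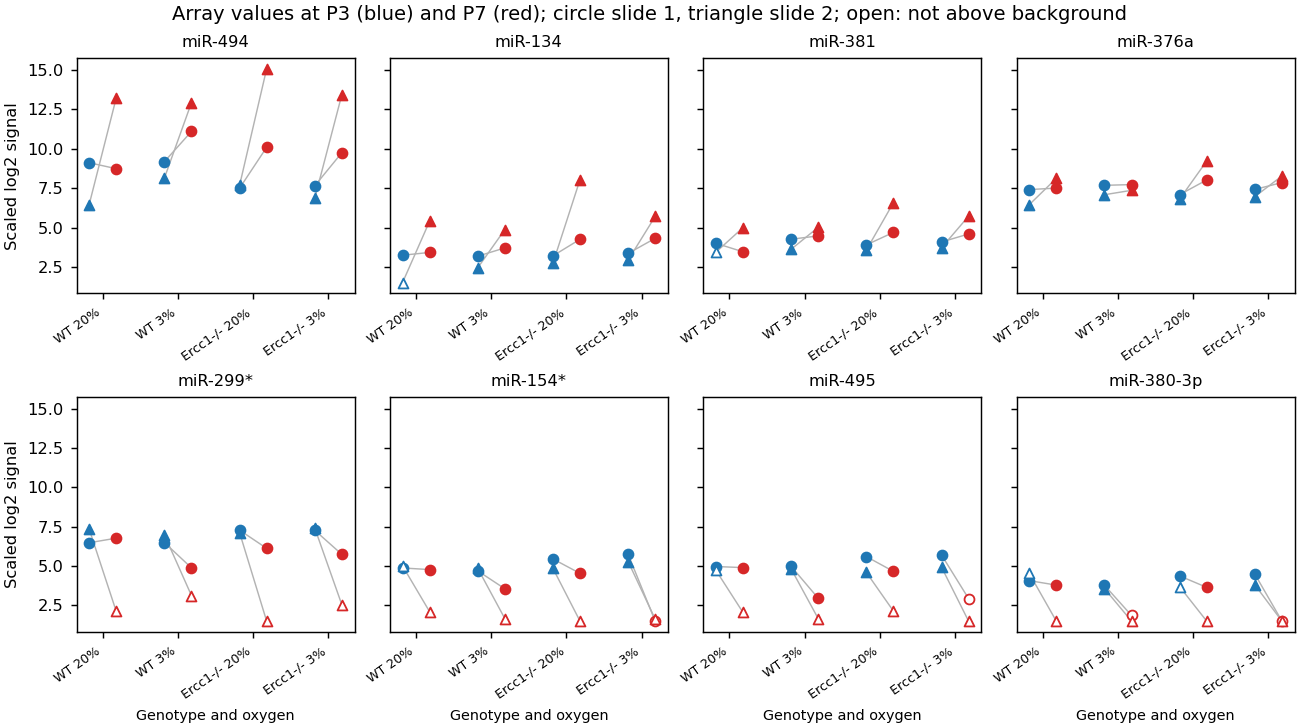
Scaled log2 signal of 4 upregulated members (top) and 4 downregulated members (bottom) on every array, with P3 (blue) joined to P7 (red) of the same genotype, oxygen and slide; circles are slide 1, triangles slide 2, and open symbols are not above background. The triangles moved farther than the circles in most panels, while WT MEFs in 20% O2 on slide 1 changed by -0.54 to 0.42 over all tested members.

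Set against brightness, the pairs of arrays differed widely. In WT MEFs in 20% O2 on slide 1 the P3 and P7 arrays were nearly equal in brightness, at 9.34 and 9.29, and the 30 members had a median change of 0.01 with an SD of 0.23, with 4 of the 12 downregulated members below their P3 value. In WT MEFs in 20% O2 on slide 2 the arrays were also nearly equal, at 6.98 and 7.08, but the SD over members was 2.47, all 12 downregulated members were lower (median -2.54) and miR-494 was higher by 6.77. In the other 6 pairs the P7 array was dimmer by 0.36 to 2.70 on the unscaled log2 scale, all 12 downregulated members were lower at P7 in each pair, and all 4 upregulated members were higher. In Ercc1-/- MEFs in 20% O2 on slide 1, where brightness fell from 9.77 to 9.16, the median of the 12 was -0.71. Over the 16 arrays the scaled signal of the downregulated members correlated with brightness at a Pearson r of 0.45 to 0.86, and that of the upregulated members at -0.64 to -0.45. These arrays share slides and cell lines, and the part of brightness in the passage change was not tested.

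The study singled out miR-154*, miR-323-3p, miR-369-5p, miR-380-3p, miR-382*, miR-496 and miR-543 on these same arrays, so their direction here is not independent evidence. Of the members the study singled out, miR-154*, miR-369-5p, miR-380-3p, miR-382* and miR-543 were among the downregulated members above. That call is from the average over both genotypes and both oxygen levels. MiR-496 was above background on 4 of 8 P3 arrays and 2 of 8 P7 arrays and on both arrays of no group, and it was not tested. Its values ran from 1.5 to 3.54 at P3 and from 1.5 to 2.85 at P7. MiR-323-3p was not above background on any of the 16 arrays and was at the floor on each.

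Both arms of 7 hairpins were tested. The arms were compared in 8 pairs of P7 and P3 arrays that shared genotype, oxygen and slide, as a description with no test: the pairs share slides and cell lines, and in 5 of the 7 hairpins 1 arm had passed the filter in P3 groups only and was not above background on 4 or more of the 8 P7 arrays, so that the size of its change there is not known. This comparison was chosen after the values had been seen.

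For miR-154 and miR-154* the difference in change was 2.10 ± 1.29 (SD over 8 pairs), and miR-154 was the less reduced arm in 8 of 8 pairs. MiR-154 itself read 6.50 to 7.00 at P3 and 5.33 to 6.78 at P7, with a change of -0.34 that was not called. For miR-382 and miR-382* the difference was 2.29 ± 1.25 (SD), in the same direction in 7 of 8 pairs, with miR-382 at 0.57 (not called) and miR-382* at -1.71. For miR-376a and miR-376a* it was 1.70 ± 1.42 (SD), in 7 of 8 pairs, and here the arms were called in opposite directions, at 0.90 and -0.80. The call of miR-376a* was lost without WT P7 3% O2, Ercc1-/- P3 3% O2 or Ercc1-/- P7 3% O2 of slide 1 and without any 1 array of slide 2 other than Ercc1-/- P7 20% O2.

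For miR-409-3p and miR-409-5p the difference was 1.65 ± 1.96 (SD), in 8 of 8 pairs, with neither arm called (0.86 and -0.79). With the replicate block miR-409-3p was called (adjusted p = 0.027 by limma). For miR-376b and miR-376b* it was 0.93 ± 0.86 (SD), in 7 of 8 pairs. MiR-299* was the more reduced arm of its hairpin in 7 of 8 pairs, by 3.05 ± 2.55 (SD), beside a change of 0.10 for miR-299. The arms of miR-411 had changes of -1.55 (called only with the replicate block, adjusted p = 0.015 by limma) and -1.60, and the difference between them was 0.05 ± 0.48 (SD). The differences were smaller on slide 1 than on slide 2 for the 6 hairpins, for example 1.40 against 2.80 for miR-154 and 0.39 against 2.90 for miR-409. Where both arms were above background on both arrays of a pair, which left 3 to 5 pairs a hairpin, the mean difference was 0.71 for miR-154, 0.95 for miR-382, 0.36 for miR-376a (in 2 of 3 pairs), 0.64 for miR-409, 0.05 for miR-376b (in 2 of 3 pairs) and -0.88 for miR-299* minus miR-299. Apart from those of miR-409, these pairs all lay on slide 1, since the more reduced arm was above background on no P7 array of slide 2.

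**Figure D5:**
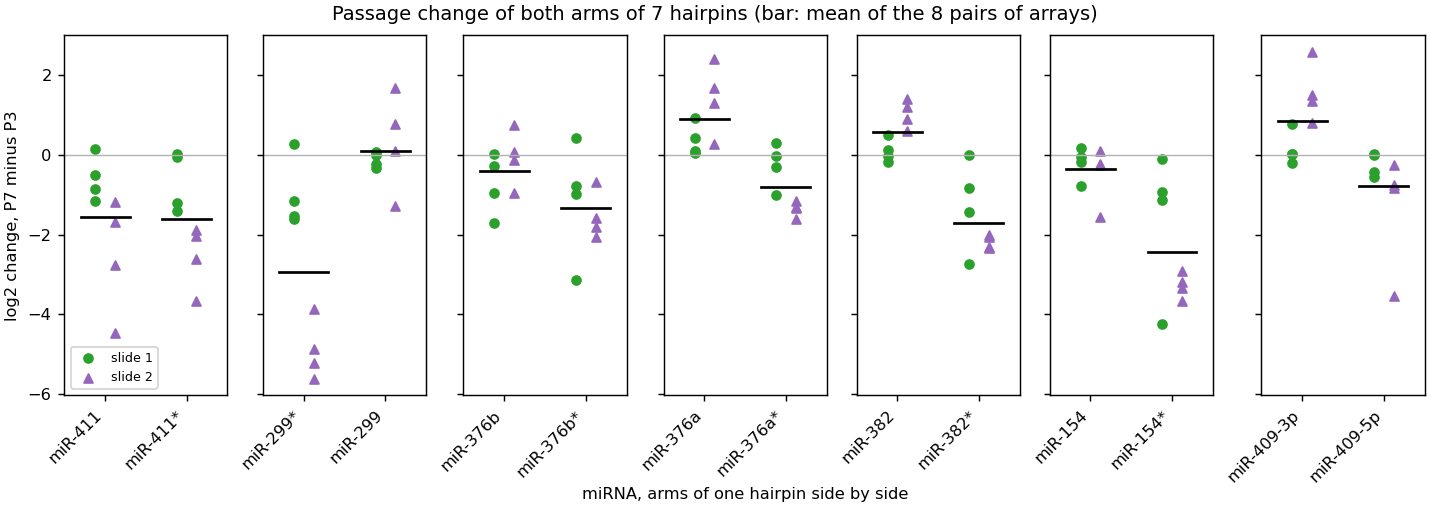
Log2 change from P3 to P7 of both arms of 7 hairpins, in 8 pairs of arrays of the same genotype, oxygen and slide (circles slide 1, triangles slide 2; the bar is the mean of 8). The arms of miR-411 overlapped, while in the other hairpins 1 arm had the lower mean. Many of the low values are of arms not above background at P7.

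Across the 16 arrays some members varied together and others in the opposite direction, as did all tested miRNAs. Each tested member was correlated with the median of the other 29 tested members as a description, since the arrays share slides, cell lines and brightness. The Pearson r was above 0.8 for 12 members and below 0 for 10. It was highest for miR-411* (0.93), miR-541 (0.93) and miR-329 (0.92), and lowest for miR-494 (-0.91), miR-134 (-0.85) and miR-381 (-0.85). Within slide 1 alone the r was 0.83, 0.77 and 0.90 for the first 3 and -0.82, -0.43 and -0.38 for the last 3, and within slide 2 alone it was 0.95, 0.96 and 0.93 and -0.96, -0.95 and -0.96. Of the members above background on every array, miR-379, miR-300, miR-382 and miR-410 had an r of -0.73, -0.77, -0.78 and -0.51 over all arrays, but on slide 1 alone it was -0.18, 0.46, 0.13 and 0.18. Over all 435 pairs of tested members the median r was 0.35, against 0.06 over all pairs of the 235 tested miRNAs, and 34.7% of the pairs of members had an r under -0.5, against 32.8% of all pairs. An r over 0.8 was seen in 117 of the 435 pairs of members and in 4140 of the 27495 pairs of all tested miRNAs.

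Of the 6 members above background on every array, miR-494 and miR-376a were described above. On the 8 P3 arrays miR-379 ranged from 7.39 to 8.61, miR-300 from 7.14 to 7.69, miR-410 from 6.52 to 7.40 and miR-382 from 5.95 to 6.64. On the 8 P7 arrays they ranged from 8.06 to 9.75, 6.93 to 9.37, 6.35 to 8.10 and 6.39 to 7.71. Their averaged changes of 0.66, 0.49, 0.13 and 0.57 were not called, although with the replicate block miR-379 was (adjusted p = 0.033 by limma). When the test was restricted to the miRNAs above background on all arrays, 3 of the 6 members among them were called, all higher, where 31.6% of the 57 were called higher, and their median change was 0.62 against 0.13 over all 57.

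The position of a hairpin and the sequence of its product were noted for the called members. The downregulated members came from hairpins along the whole cluster, 2 of the 12 inside the annotated Mirg gene. None of the 4 upregulated members came from inside it, beside 6 of the 14 tested members that were not called. The GC content of the mature sequence was 36.4% to 45.5% in the 10 downregulated members with a sequence (median 38.6%), 42.9% to 59.1% in the 4 upregulated members (median 45.5%) and 36.4% to 54.5% in 11 members that were not called (median 47.6%). The arm read by the probe was the 3p arm in 7 of those 10, in 3 of those 4 and in 5 of those 11. These are descriptions with no test.

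Taken 1 by 1, no passage comparison called a member. In WT MEFs in 20% O2, limma called 0 of 30 members and 1.28% of all tested miRNAs, and 0 members had an unadjusted p under 0.05. In WT MEFs in 3% O2 it called 0 members and 0% of all miRNAs, with 2 members at an unadjusted p under 0.05. In Ercc1-/- MEFs in 20% O2 it called 0 members and 1.28% of all, with 5 members at an unadjusted p under 0.05, and in Ercc1-/- MEFs in 3% O2 it called 0 members and 0% of all, with 10. The median changes of the members were -0.32, -0.65, -0.78 and -0.90 in this order, and those of all tested miRNAs were -0.44, -0.23, -0.53 and -0.29.

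In Ercc1-/- MEFs in 3% O2 the fit with the replicate block called 7 members, all lower at P7: miR-154*, miR-369-5p, miR-376b*, miR-380-3p, miR-382*, miR-495 and miR-543. In that fit 15.3% of all tested miRNAs were called lower. Either P7 array was dimmer than its P3 array, by 1.77 on slide 1 and 1.29 on slide 2. None of the 7 members was above background on either P7 array, so their folds are lower bounds, from at least 2.21-fold for miR-543 to at least 9.03-fold for miR-154*. The part of brightness in these changes was not tested. In Ercc1-/- MEFs in 20% O2, leaving out replicate 1 at P7 gave 24 called members and calls for 76.6% of all tested miRNAs, which rests on the P7 array of slide 2 alone, the dimmest of all.

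Between genotypes, at P3 and as the mean of both oxygen levels, limma called 0 members and 1.28% of all tested miRNAs, and 0 members had an unadjusted p under 0.05. The members were slightly higher in Ercc1-/- MEFs, with a median difference of 0.28 against 0.00 over all tested miRNAs and 27 of 30 members above 0. This was not particular to the cluster: the 11 tested Dlk1-Dio3 miRNAs outside it had a median of 0.25, with 9 above 0 and 2 below. The median difference of the members was 0.32 on slide 1 and 0.20 on slide 2, and the Ercc1-/- P3 arrays of slide 1 were also the brightest of all (9.77 and 9.68). At P7 limma called 0 members and 0.851% of all, with 0 members at an unadjusted p under 0.05, and the median difference was -0.11. The smallest p among the members at P7 was that of miR-410, 0.71 higher in Ercc1-/- MEFs ± 0.38 (SE, adjusted p = 0.60 by limma).

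Between oxygen levels, the members were -0.10 apart at P3 (20% minus 3% O2, median over the 30) and 0.35 apart at P7. Limma called 0 members at either passage, with 0 at an unadjusted p under 0.05, and called 0.426% of all tested miRNAs at P3 and 0.851% at P7. At P7 on slide 1 the median difference was 0.68 and on slide 2 it was 0.00. Without the 4 dim arrays, a choice made after seeing the data, 8 members and 10.6% of all tested miRNAs were called higher in 20% O2 at P7, a fit in which 20% O2 stands on the slide 1 arrays alone.

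The passage change was not shown to depend on genotype or oxygen. For the difference in passage change between Ercc1-/- and WT MEFs, limma called 0 members and 0% of all tested miRNAs, with 0 members at an unadjusted p under 0.05, and the median over members was -0.38 against 0.03 over all. MiR-376a had the smallest p, at 0.75 ± 0.59 (SE, adjusted p = 0.77 by limma). For the difference between 20% and 3% O2, limma called 0 members and 0% of all, with 0 members at an unadjusted p under 0.05. There the median over members was 0.53 against 0.01 over all, with 25 of 30 members above 0, at 0.65 on slide 1 and 0.13 on slide 2. The 11 tested Dlk1-Dio3 miRNAs outside the cluster had a median of 0.41, with 10 above 0 and 1 below. With 2 arrays a group, these tests do not show that the groups act alike.

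The Dlk1-Dio3 miRNAs outside the cluster were compared in counts and medians only. Of these 26 miRNAs, 16 were above background on at least 1 array and 11 were tested, of which 1 was called higher and 2 lower in the averaged passage comparison, with a median of -0.09. For the identity of the cultures, all 7 miRNAs of a mesenchymal list were above background, 5 of them on all arrays. With passage, 6 of the 7 were lower, with 3 called lower and 1 higher and a median of -1.15, and their summed scaled signal ran from 15920 to 21506 at P3 and from 2648 to 22083 at P7. Of 10 embryonic stem cell miRNAs, 3 were above background on some array, and the single one tested was called higher at P7, at 1.43. The part of such lists in the changes of the cluster was not tested. None of 6 epithelial miRNAs was above background on any array. Of 5 neural, 5 blood and 4 muscle miRNAs, 2, 3 and 1 were above background on some array, and 0 of each on all 16. The summed scaled signal of the neural list lay between 14.1 and 23.2 at P3 and between 14.1 and 17.9 at P7, at or near the sum of its floors.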

How the data were processed

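Total RNA of 16 MEF cultures was labelled with Cy3 and hybridized to Agilent mouse miRNA arrays (V2) with 13715 spots each. The authors deposited each array's scanner output, whose processed signal is the spot intensity after background subtraction by Agilent Feature Extraction (version 10.7.1.1 per the file headers, another version in the methods), not scaled between arrays, and a series table of summed intensity per miRNA. No spot was saturated. From these, control and outlier spots were dropped, spots were averaged per probe and probes per miRNA, and arrays were scaled to equal mean log2 intensity over the 57 miRNAs that all arrays measured above background, because the methods normalize to an array mean and this mean is not affected by undetected miRNAs. Group means of the 235 tested miRNAs were fitted together with limma 3.58.1 (R 4.3.3), moderated by eBayes (prior df 3.58, residual df 8). The 11 comparisons were adjusted separately by Benjamini-Hochberg, and a call needed an adjusted p under 0.05 but no fold. Where no array of a dimmer group was above background, its value on an array was replaced by that array's lowest signal above background wherever this was higher, and a fold was given as "at least". Precision is limited by 2 arrays a group, and p-values measure the spread between arrays that differ in cell line and slide.

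Replicate numbers mark a shared slide. The differences between replicates correlated among groups of a passage (median r of 0.61 at P3 and 0.81 at P7) but not across passages (0.03). A slide difference that changes with passage is not taken up by a block, which gives each slide the same shift at both passages. With or without it, the averaged passage tests count arrays of a slide at a passage as independent, so their p-values can be too small. A fit with the replicate number as a block was the alternative. Others were 5 scalings and no scaling, background correction (normexp, offset 50, on the median signal, because the planned mean signal is not a column used here), the software's total signal and detection call, the series table, the filter and floor, random blocks, the methods' test, and leaving out each array. The steps were tested on simulated data.

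Members and lists were chosen with earlier results of these data known. Named were the 6 tested members with the highest mean signal, the members the study names, those called (at most 10 by p in each direction), the largest averaged passage changes, both arms of a hairpin where tested, and the 3 highest and 3 lowest correlations.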

Additional observations from a re-analysis of the deposited data

How the results depend on the processing

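The count of members called in the averaged passage comparison (16) was 10 with the mean over all mouse miRNAs as the scale, 5 with no scaling, 2 with normexp, 6 with the software's total signal, 7 of 47 with no filter on dim miRNAs and 3 of 6 among miRNAs above background on all arrays. It was 0 on slide 1 alone, 11 to 25 when 1 array was left out, the highest without Ercc1-/- P7 20% O2 replicate 1, and 11 without the 4 dim arrays. The replicate block gave 20 members and did not end any of the 16 calls, and apart from Ercc1-/- MEFs in 3% O2 it called 0 members in the other comparisons. The block does not take up slide differences that change with passage. Across the 5 scalings and no scaling the median of all tested miRNAs moved from -0.39 to values between -1.14 and -0.11, and the members stayed 0.14 to 0.33 below it; with normexp they were 0.01 below. Under normexp the changes of miR-154*, miR-369-5p, miR-376a*, miR-376b*, miR-376c, miR-380-3p, miR-382*, miR-411*, miR-495 and miR-543 turned to 0.030, 0.24, 0.37, 0.35, 0.062, 0.30, 0.32, 0.12, 0.062 and 0.36, and with no scaling that of miR-376a to -0.020. The cause was not tested.

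In the single comparisons with 0 members called, Ercc1-/- MEFs in 3% O2 gave 7 with the replicate block, 6 with the cell line as a random block, 1 with the 75th percentile over all mouse miRNAs as the scale, 9 without the dim arrays and 2 by the methods' test at 2-fold. WT MEFs in 3% O2 gave 10 without the dim arrays and 2 by the methods' test. After Benjamini-Hochberg adjustment the methods' test gave 0 in all 4. Leaving out 1 array gave 0 to 24 in Ercc1-/- MEFs in 20% O2, 0 to 2 between genotypes at P7, 0 to 1 between oxygen levels at P7 (8 without the dim arrays) and 0 to 1 for the difference in passage change between genotypes. Members near background on the dim arrays have no measurable order there.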
